A study of Mus musculus with 7 samples.

Results

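The genes examined here form the core of the route from receptor tyrosine kinases to the kinase ERK, measured in cerebellar RNA of mice with and without the transcriptional repressor Cic. They were chosen by name, as the 33 listed symbols among the 24421 gene symbols counted in each of 7 libraries. The list holds 14 receptors, 4 RAS GTPases, 5 proteins that switch RAS on or off, 4 RAF kinases and KSR scaffolds, 3 kinases of the MEK and ERK tiers and 3 RSK kinases. All 33 passed the filter on low counts, which kept 16905 genes.

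The CicKO group had 4 libraries of genotype En1-Cre; Cicflox/flox, and the group titled Wildtype had 3 libraries of genotype Cicflox/+ with no Cre named. Both groups are cerebellum of strain C57BL/6, and the labels give no age or sex. Cre under En1 control acts only in cells with a history of En1 expression, so cells outside that lineage keep Cic in the CicKO tissue. Because Cre is named in 1 group only, its own effect and that of Cic loss cannot be told apart. Nothing in the labels states that each library came from its own animal. The p-values therefore measure the spread between these libraries, and how much of it is technical is not known.

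In this route a growth factor brings receptor molecules together, their kinase domains phosphorylate each other, and adaptors recruit exchange factors that load RAS with GTP. GTPase-activating proteins such as neurofibromin turn RAS off again. Active RAS engages RAF kinases, which phosphorylate MEK, which phosphorylates ERK, and ERK in turn activates RSK kinases and enters the nucleus. CIC lies at the end of the route: it keeps ETS factor genes and feedback inhibitor genes silent until ERK signalling relieves it. Several of the receptors are classic markers of single cell classes in the cerebellum, such as Kit in molecular layer interneurons, Pdgfra in oligodendrocyte precursors, Pdgfrb in pericytes and Fgfr3 in astroglia.

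The libraries held 102653765 to 121285349 counts in genes. Levels are given as CPM, a gene's count scaled to a common library size with TMM factors. Whole-gene Cic lay at 144 to 147 CPM in the CicKO libraries and at 216 to 257 CPM in the Wildtype libraries (log2 fold change -0.66, SE 0.0622, edgeR adjusted p = 0.00256). Purkinje cell and granule cell markers were present in all libraries, with no listed marker below a mean of 139 and 340 CPM, respectively. Libraries CicKO 3 and Wildtype 3 stood apart: their 8 choroid plexus markers summed to 8481 and 6132 CPM, against 42.8 to 142 CPM in the other libraries. The no-feature share, meaning reads that the counting assigned to no counted feature, may include reads in introns, as the counted features are not stated. It was 16.0% and 16.5% of all reads tallied in Wildtype 1 and 3. In the other 5 libraries it was 18.2% to 19.0%. Xist stood at 1556 and 1596 CPM in CicKO 1 and 2 and at 0.456 to 14.7 CPM elsewhere. No Wildtype library had the high level, so differences that go with Xist and with genotype cannot be fully told apart.

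Per length, Mapk3 and Map2k1 were the most abundant members, and Erbb2, Rasgrf2, Erbb4 and Met the least. Levels per length are RPKM, here CPM divided by the kilobases of annotated exon of the gene. In the Wildtype libraries Mapk3, which encodes ERK1, was highest at 53.7 ± 1.97 RPKM (SD, n = 3), followed by the MEK1 gene Map2k1 at 48.0 ± 2.20 RPKM. Neither range touched the next member's, whereas Kit (32.2 ± 0.616 RPKM), Rps6ka1 (30.2 ± 3.29 RPKM) and Araf (29.1 ± 0.652 RPKM) followed with overlapping ranges from one to the next. Map2k2, the gene of MEK2, stood at 11.9 ± 0.456 RPKM, below Map2k1 in every library. Among the RAS genes the order was Mras (19.2 ± 0.982 RPKM), Hras (14.8 ± 0.235 RPKM), Rras (9.89 ± 1.04 RPKM) and Nras (7.97 ± 0.382 RPKM), with no overlap between neighbours. The RAF genes differed too, Braf being at 12.7 ± 0.902 RPKM against the higher level of Araf. Exon length counts every annotated isoform, so a gene with long or rare isoforms reads low on this scale.

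**Figure D1:**
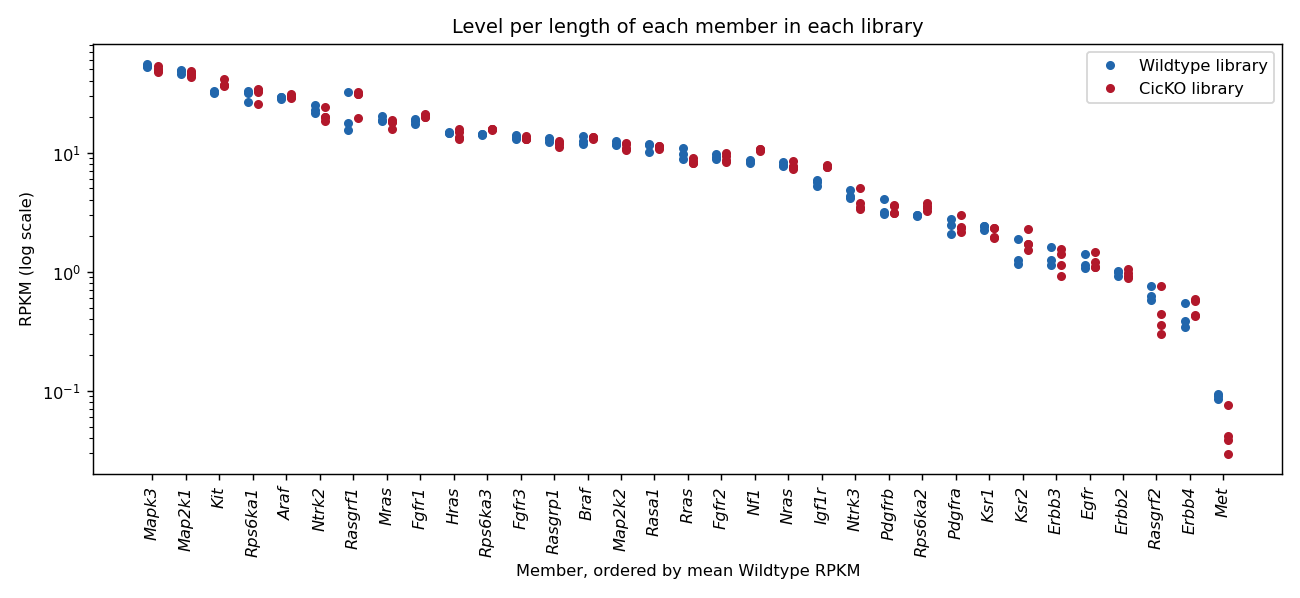
RPKM on a log axis for each of the 33 members, ordered by the Wildtype mean, with 1 point per library (blue, 3 Wildtype; red, 4 CicKO). The Wildtype means run from 53.7 RPKM for Mapk3 to 0.0905 RPKM for Met, and the 2 colours lie close together for most members.

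The receptors spanned the widest range. Kit, the receptor of stem cell factor, and Ntrk2, the BDNF receptor TrkB, led with 32.2 ± 0.616 and 23.1 ± 1.85 RPKM in the Wildtype libraries, followed by Fgfr1 (18.4 ± 0.806), Fgfr3 (13.5 ± 0.503) and Fgfr2 (9.22 ± 0.420 RPKM). Igf1r stood at 5.58 ± 0.310 RPKM and the NT-3 receptor gene Ntrk3 at 4.46 ± 0.368 RPKM. Pdgfrb and Pdgfra followed at 3.45 ± 0.540 and 2.43 ± 0.362 RPKM. The 4 ERBB family genes were all low, Erbb3 at 1.34 ± 0.246, Egfr at 1.21 ± 0.168, Erbb2 at 0.984 ± 0.0482 and Erbb4 at 0.426 ± 0.110 RPKM. The ranges of Erbb3 and Egfr overlapped, whereas Erbb2 and Erbb4 each lay below the one before. Met, the HGF receptor gene, was lowest of all at 0.0905 ± 0.00418 RPKM, on 23 or more counts in each library.

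Most of these genes had transcript levels close to those of the Wildtype libraries, and a receptor gene and a RAS off-switch gene rose in CicKO. Igf1r and Nf1 were called higher (edgeR quasi-likelihood test, Benjamini-Hochberg adjusted p below 0.05 over 16905 genes), which is 2 of 33 members beside 1.25% of all tested genes, and 0 were called lower beside 0.828%. At an unadjusted p below 0.05, 6 members were higher and 2 lower, beside 8.06% and 8.16% of all genes. Groups did not overlap for 6 members that lay higher in every CicKO library and for 1 that lay lower, beside 7.06% and 8.36% of all genes. DESeq2 called 6 members higher and 0 lower, beside 3.95% and 2.92%. The median log2 fold change was -0.03 over the members and -0.0044 over all tested genes, and the median absolute log2 fold change was 0.104 and 0.105. For 28 of the 33 the 95% interval of the change lay inside 1.5-fold in both directions, as it did for 69.9% of all genes. In bulk tissue, fewer cells of a type and less RNA per cell cannot be told apart.

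**Figure D2:**
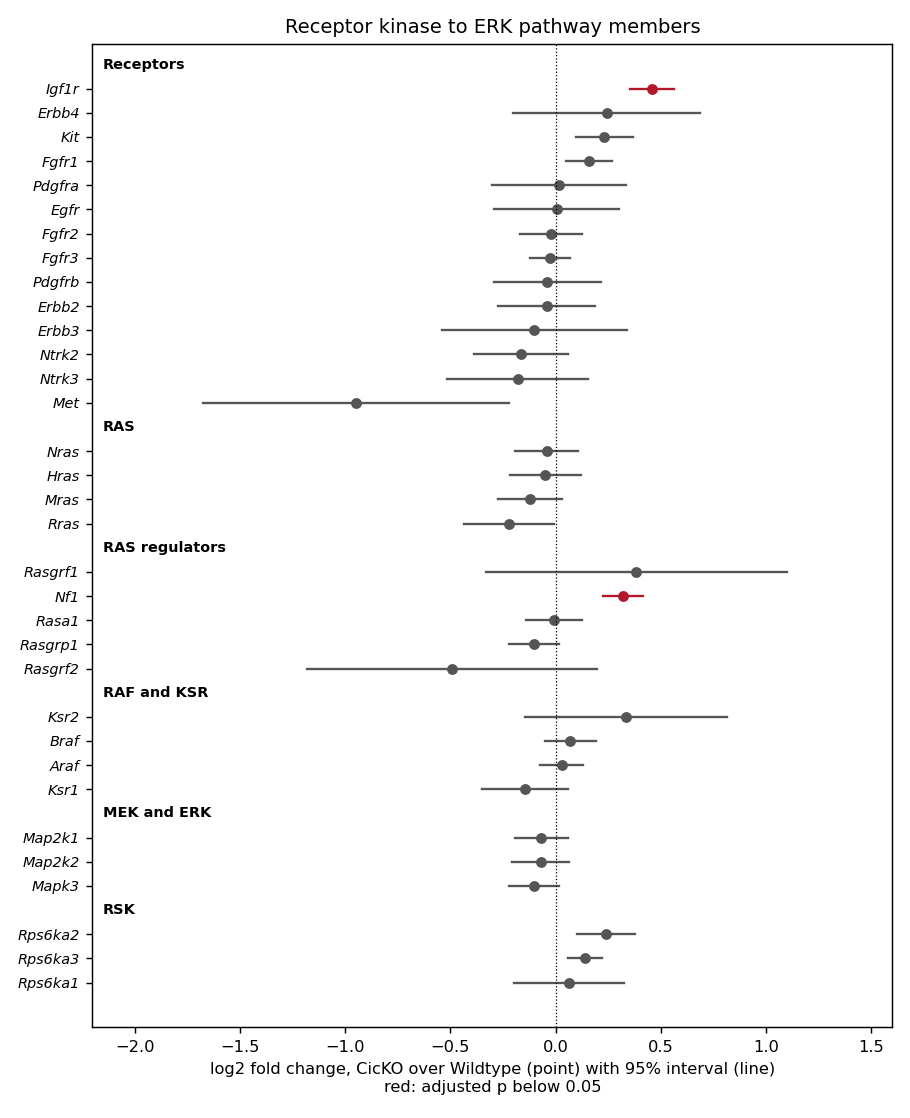
Log2 fold change of CicKO over Wildtype for the 33 members grouped by role, each point with its 95% interval from edgeR (4 and 3 libraries). Igf1r at 0.46 and Nf1 at 0.32, in red, are the called members. The intervals of Met, Rasgrf1 and Rasgrf2 are the widest.

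Igf1r encodes the receptor for insulin-like growth factors, which promotes growth and survival of neurons and glia. It stood at 131, 128, 127 and 128 CPM in CicKO 1 to 4 and at 95.03, 98.0 and 87.9 CPM in Wildtype 1 to 3. Every CicKO library lay above every Wildtype library, and the CicKO values differed less among themselves than the Wildtype values. The means were 129 ± 1.85 CPM (SD, n = 4) and 93.6 ± 5.203 CPM (n = 3), a 1.37-fold difference (log2 fold change 0.46, SE 0.0467, 95% interval 0.35 to 0.56, edgeR adjusted p = 0.00303). The gene lies on the plus strand of chromosome 7 at 67952827 to 68233668 (GRCm38, GENCODE M21). The call held without any single library (edgeR adjusted p 0.0026 to 0.0179), and was lost only when the no-feature share was a covariate (log2 fold change 0.41, adjusted p = 0.0691).

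Nf1 encodes neurofibromin, a GTPase-activating protein that returns RAS to its inactive state. Its level was 171, 171, 164 and 166 CPM in CicKO 1 to 4 and 137, 136 and 130 CPM in Wildtype 1 to 3. The lowest CicKO library exceeded the highest Wildtype library by more than the spread within either group. Means were 168 ± 3.81 and 134 ± 3.90 CPM, a 1.25-fold difference (log2 fold change 0.32, SE 0.0411, 95% interval 0.23 to 0.41, edgeR adjusted p = 0.00884). Nf1 lies on the plus strand of chromosome 11 at 79339693 to 79581612. Its call ended without CicKO 1 (adjusted p = 0.0502), without Wildtype 3 (0.0541), with Xist as a covariate (0.0504) and with the no-feature share as a covariate (0.103), while the log2 fold change stayed between 0.30 and 0.34 over all alternatives.

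**Figure D3:**
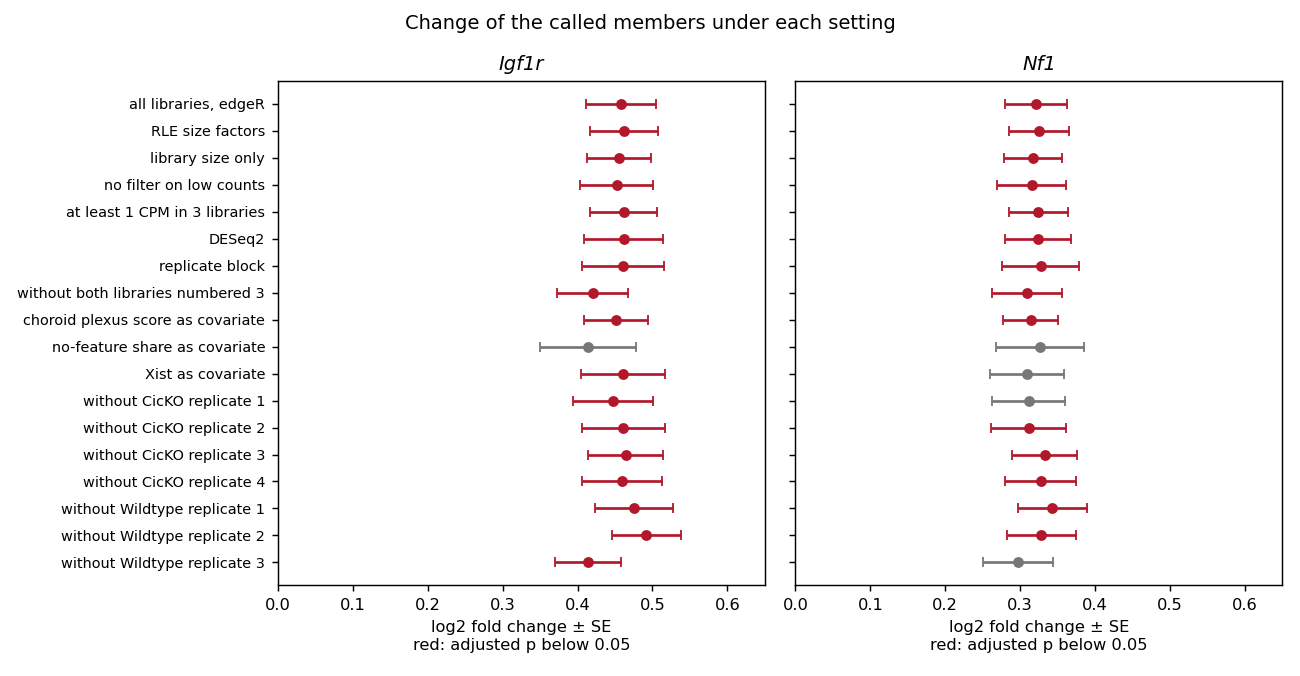
Log2 fold change with its SE for Igf1r and Nf1 under the analysis with all libraries and 17 alternatives, red where the adjusted p is below 0.05. Estimates stay between 0.41 and 0.49 for Igf1r and between 0.30 and 0.34 for Nf1, and 1 and 4 alternatives, respectively, miss the threshold.

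CIC binds DNA at the octamers TGAATGAA and TGAATGGA, so the promoter windows of the members were searched for both, on either strand. RefSeq windows of 300 bases (250 before and 50 from the start site, GRCm38.p6) were found for 27 of the 33 members, and 0 of the 27 held an octamer. An octamer occurred in 2.85% of all 27025 genes with a window, and in 2 of 11 known CIC targets with one, Spred3 and Maff. Among genes called higher 13.0% held one, and among genes called lower 0.917%. The windows of the called members are shown because neither contains the octamer, with that of Spred3, a feedback inhibitor gene of the same pathway, for comparison. Capitals mark the 50 bases from the start site on in Igf1r and Nf1, and the octamer in Spred3. The windows are chr7:67952007-67952306 (plus strand) for Igf1r, chr11:79339642-79339941 (plus strand) for Nf1 and chr7:29168598-29168897 (minus strand) for Spred3.
Igf1r: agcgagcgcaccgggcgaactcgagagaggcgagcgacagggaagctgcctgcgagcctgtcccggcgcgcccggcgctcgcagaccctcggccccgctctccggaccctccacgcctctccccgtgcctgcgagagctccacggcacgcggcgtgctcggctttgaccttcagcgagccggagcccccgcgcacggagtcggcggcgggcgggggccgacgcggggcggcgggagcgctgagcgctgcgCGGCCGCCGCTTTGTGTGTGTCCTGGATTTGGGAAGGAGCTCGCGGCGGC
Nf1: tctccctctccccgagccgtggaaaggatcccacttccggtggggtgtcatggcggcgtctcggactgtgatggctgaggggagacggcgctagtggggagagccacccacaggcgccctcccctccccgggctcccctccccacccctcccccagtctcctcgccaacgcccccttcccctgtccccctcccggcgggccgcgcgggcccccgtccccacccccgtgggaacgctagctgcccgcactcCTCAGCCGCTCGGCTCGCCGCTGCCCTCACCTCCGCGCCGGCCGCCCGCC
Spred3: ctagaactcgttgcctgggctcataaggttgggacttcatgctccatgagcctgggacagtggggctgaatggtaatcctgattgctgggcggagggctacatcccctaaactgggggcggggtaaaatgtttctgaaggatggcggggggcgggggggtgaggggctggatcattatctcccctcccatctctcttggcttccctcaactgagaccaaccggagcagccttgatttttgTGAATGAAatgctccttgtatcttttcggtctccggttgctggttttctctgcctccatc

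The Igf1r and Nf1 windows were 76.0% and 75.7% G and C, against 55.0% for Spred3, whose octamer began 10 bases before the start site. Spred3 itself stood at 60.1 ± 0.624 CPM in the CicKO and 29.5 ± 2.56 CPM in the Wildtype libraries, a 2.04-fold difference (edgeR adjusted p = 0.000458). The search covers these letters in these windows only. For Igf1r the RefSeq window ends at 67952306, before the GENCODE M21 start of the gene at 67952827. The sequence at that GENCODE start was therefore not searched. For Nf1 the GENCODE M21 start, at 79339693, lies inside the window of 79339642 to 79339941, before its RefSeq start site. Fewer than 250 bases before that GENCODE start were therefore searched for Nf1.

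A further 4 members lay higher in every CicKO library without passing the adjusted threshold in edgeR, and DESeq2 called all 4. Kit, the receptor that marks molecular layer interneurons, stood at 369, 329, 321 and 327 CPM in CicKO 1 to 4 and at 290, 280 and 289 CPM in Wildtype 1 to 3. CicKO 1 was the highest library and the other 3 CicKO libraries lay close together. The log2 fold change was 0.23 (SE 0.0599, edgeR adjusted p = 0.0993, DESeq2 adjusted p = 0.00682). Of the 4 interneuron markers, Gad2, which encodes a GABA-synthesising enzyme, was called lower (log2 fold change -0.25, edgeR adjusted p = 0.0369). Gad1 had 0.13 (edgeR adjusted p = 0.322) and lay higher in every CicKO library, at 790 to 885 CPM against 742 to 780 CPM. Lypd6 had 0.22 (edgeR adjusted p = 0.299) and Tfap2b -0.08. The summed level of that list overlapped between groups, at 1069 to 1175 CPM in CicKO and 1060 to 1108 CPM in Wildtype, with no marker at 0, and its part in the Kit difference was not tested.

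Fgfr1, a receptor for fibroblast growth factors, ranged from 198 to 209 CPM in CicKO and from 173 to 189 CPM in Wildtype libraries (log2 fold change 0.16, SE 0.0476, edgeR adjusted p = 0.146, DESeq2 adjusted p = 0.0232). Its exons overlap those of the antisense gene Gm16159, which was at only 0.126 CPM. The RSK genes Rps6ka2 and Rps6ka3, which encode kinases activated by ERK, showed the same order of libraries. Rps6ka2 (RSK3) stood at 32.3 to 37.6 CPM in CicKO and 29.1 to 29.9 CPM in Wildtype libraries (log2 fold change 0.24, SE 0.0599, edgeR adjusted p = 0.0905, DESeq2 adjusted p = 0.0108). Rps6ka3 (RSK2), on chromosome X, was the steadiest member, at 128 to 132 CPM in CicKO and 118 to 119 CPM in Wildtype libraries. Its log2 fold change was 0.14 (SE 0.0354, edgeR adjusted p = 0.0929, DESeq2 adjusted p = 0.00282), with group SDs of 1.69 and 0.886 CPM. None of these 4 genes was called in edgeR under any alternative, so their calls rest on DESeq2.

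Met was the member that lay lower in every CicKO library. It stood at 0.226, 0.323, 0.589 and 0.295 CPM in CicKO 1 to 4 and at 0.694, 0.663 and 0.728 CPM in Wildtype 1 to 3. CicKO 3 was nearest to the Wildtype libraries. The log2 fold change was -0.95 (SE 0.318, edgeR adjusted p = 0.191), with a 95% interval from -1.68 to -0.22, and the DESeq2 adjusted p was 0.125. Without CicKO 3, 3 members were called lower beside 2.08% of all genes: Met (log2 fold change -1.30, edgeR adjusted p = 0.0214), Ntrk3 (-0.33, adjusted p = 0.0366) and the RAS exchange factor gene Rasgrf2 (-0.83, adjusted p = 0.0351).

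**Figure D4:**
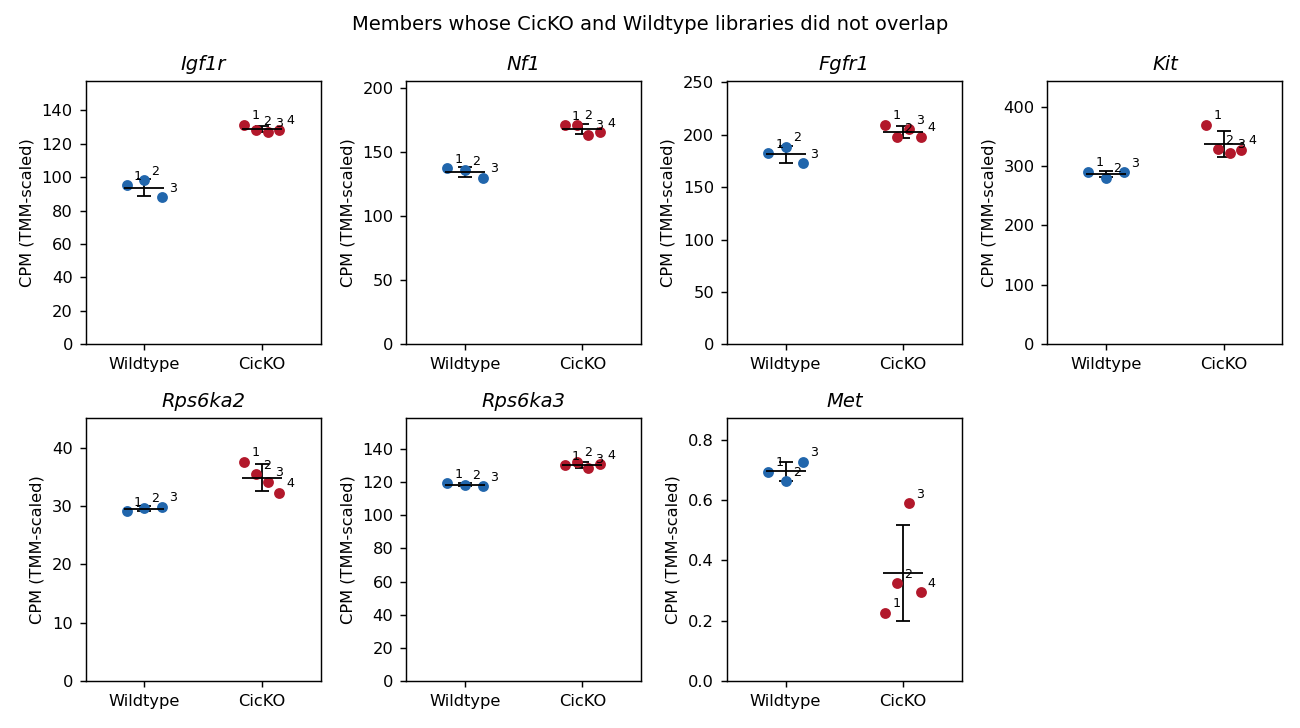
CPM of the 7 members whose groups did not overlap, 1 numbered point per library, with the mean and SD of each group (3 Wildtype, 4 CicKO). In 6 panels the plot has every CicKO point above every Wildtype point, and Met has the reverse, with CicKO 3 at 0.589 CPM nearest to the Wildtype points.

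The other receptors overlapped between groups, and none was called by edgeR or DESeq2 with all libraries. Among the fibroblast growth factor receptors, Fgfr2 and Fgfr3 had log2 fold changes of -0.02 (95% interval -0.17 to 0.12) and -0.03 (-0.12 to 0.07), so both intervals exclude the change seen for Igf1r. Of 8 markers of astrocytes and Bergmann glia, the cells in which Fgfr3 is known, 2 were called lower by edgeR (Gdf10 and Aqp4) and 4 by DESeq2 (also Aldh1l1 and Gfap), and 5 lay lower in every CicKO library. The mean log2 level of the list was 8.44 to 8.55 in CicKO and 8.69 to 8.73 in Wildtype libraries, with no overlap. Its summed level overlapped, at 6141 to 6500 and 5697 to 6641 CPM. The most abundant gene of the list, Aldoc, had a log2 fold change of 0.27 (edgeR adjusted p = 0.363). How far each listed gene is confined to these cells was not tested. The part of these cells in the Fgfr3 level was not tested. Fgfr2 shares exon sequence with Ctbp2 on the same strand, so reads there could not be assigned to either gene alone. Ntrk2 had -0.17 (SE 0.0975) and Ntrk3 -0.18 (SE 0.143), with adjusted p of 0.452 and 0.586 in edgeR. The ERBB genes had 0.0050 for Egfr, -0.04 for Erbb2, -0.10 for Erbb3 and 0.24 for Erbb4, the last with an interval of -0.20 to 0.69 that leaves its direction unresolved. Erbb3, a neuregulin receptor of oligodendrocytes, stood at 5.52 to 9.25 CPM in CicKO and 6.86 to 9.72 CPM in Wildtype libraries. Of 8 oligodendrocyte markers, 8 had a negative estimate, 1 was called lower by edgeR (Cldn11) and 3 by DESeq2 (also Cnp and Mobp). Those markers summed to 3792 to 5978 CPM in CicKO and 5075 to 6373 CPM in Wildtype libraries.

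The PDGF receptor genes gave 0.02 for Pdgfra (95% interval -0.30 to 0.33) and -0.04 for Pdgfrb (-0.29 to 0.21). Pdgfra ranged from 21.4 to 30.3 CPM in CicKO and from 20.7 to 27.9 CPM in Wildtype libraries. The other oligodendrocyte precursor markers summed to 122 to 152 CPM in CicKO and 154 to 172 CPM in Wildtype libraries, with 1 of 7, the transcription factor Olig1, called lower (log2 fold change -0.39, edgeR adjusted p = 0.0412). The mural cell markers, which accompany Pdgfrb, overlapped between groups at 109 to 138 and 99.98 to 164 CPM in sum, with 0 of 7 called in edgeR or DESeq2 and 0 at an unadjusted p below 0.05. Other lists rose: all 6 Purkinje cell and all 5 endothelial markers had positive estimates (median log2 fold change 0.22 and 0.21). In these lists edgeR called 0, and DESeq2 called 1, the endothelial Slco1a4, higher. Of 6 granule cell markers, 2 had positive and 4 negative estimates.

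RAS, RAF, MEK and ERK genes differed little between groups. None of the 9 genes named in this paragraph was called by edgeR or DESeq2, and Rras alone had an unadjusted edgeR p below 0.05 (0.0422). The 4 RAS genes all had negative estimates: Rras -0.22 (95% interval -0.43 to -0.0098), Mras -0.12 (-0.28 to 0.03), Hras -0.05 (-0.22 to 0.12) and Nras -0.04 (-0.19 to 0.11). Rras stood at 9.13 to 10.2 CPM in CicKO and 10.0 to 12.3 CPM in Wildtype libraries, overlapping through Wildtype 2, and its edgeR adjusted p was 0.287. The RAF genes Araf and Braf had 0.03 (-0.07 to 0.13) and 0.07 (-0.05 to 0.19), and Braf exons overlap the antisense-strand gene Ndufb2. Map2k1, Map2k2 and Mapk3 had -0.07, -0.07 and -0.10, with every interval between -0.22 and 0.06. A 1.37-fold rise such as that of Igf1r lies outside each of these 9 intervals.

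The scaffold genes Ksr1 and Ksr2, whose products hold RAF, MEK and ERK together, had -0.15 (95% interval -0.35 to 0.06) and 0.33 (-0.15 to 0.81). Among the RAS regulators other than Nf1, Rasa1, which also encodes a GTPase-activating protein, had -0.0079 (-0.14 to 0.12), and the exchange factor gene Rasgrp1 had -0.10 (-0.22 to 0.01). Rasgrf1 and Rasgrf2, calcium-responsive exchange factors of neurons, had 0.38 and -0.49, with intervals of -0.33 to 1.10 and -1.18 to 0.20. Rps6ka1 (RSK1) had 0.06 (-0.20 to 0.32). Rasgrf1, Rasgrf2 and Ksr2 had intervals that reach past 1.5-fold, and these genes also varied most within groups among the RAS regulators and scaffolds.

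For some members the libraries numbered 3 of both groups stood together, in counts that were not tested against those of all genes. CicKO 3 and Wildtype 3 were the 2 highest of the 7 libraries for 5 of 33 members, beside 10.6% of all genes. These members were Egfr, Erbb2, Ntrk2, Pdgfra and Rasgrf2. For 1 of 33, Rps6ka1, the same libraries were the 2 lowest, beside 9.22% of all genes. Egfr stood at 16.6 and 15.9 CPM in these libraries and at 12.2 to 13.7 CPM in the other 5. Rasgrf2 stood at 6.96 and 7.07 CPM there, against 2.80 to 4.12 CPM in the other CicKO and 5.31 to 5.76 CPM in the other Wildtype libraries. Rps6ka1 was at 110 and 113 CPM there and at 134 to 146 CPM elsewhere. These are the libraries rich in choroid plexus transcripts, and the part of that tissue in these levels was not tested.

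Wildtype 1 and 3 were the libraries with the lowest no-feature share. They were the 2 lowest of 7 for 6 of 33 members, beside 13.0% of all genes: Braf, Erbb4, Fgfr1, Igf1r, Ksr2 and Rasgrf1. They were the 2 highest for 4 of 33, beside 11.1% of all genes: Map2k1, Met, Rasgrp1 and Rras. These counts were not tested against those of all genes. For Fgfr1, Igf1r and Met the groups did not overlap, so 2 Wildtype libraries had to be the extremes. Rasgrf1 stood at 173 and 196 CPM in Wildtype 1 and 3 and at 355 CPM in Wildtype 2. The latter lay among CicKO 1, 2 and 4 at 344 to 356 CPM, while CicKO 3 was at 215 CPM. Ksr2 stood at 15.7 and 16.9 CPM in Wildtype 1 and 3, at 25.8 CPM in Wildtype 2 and at 20.6 to 31.2 CPM in CicKO libraries. For Igf1r Wildtype 2 was the highest Wildtype library, yet at 98.0 CPM it lay well below the lowest CicKO library at 127 CPM. The part of this share in the levels was not tested beyond the covariate fit.

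**Figure D5:**
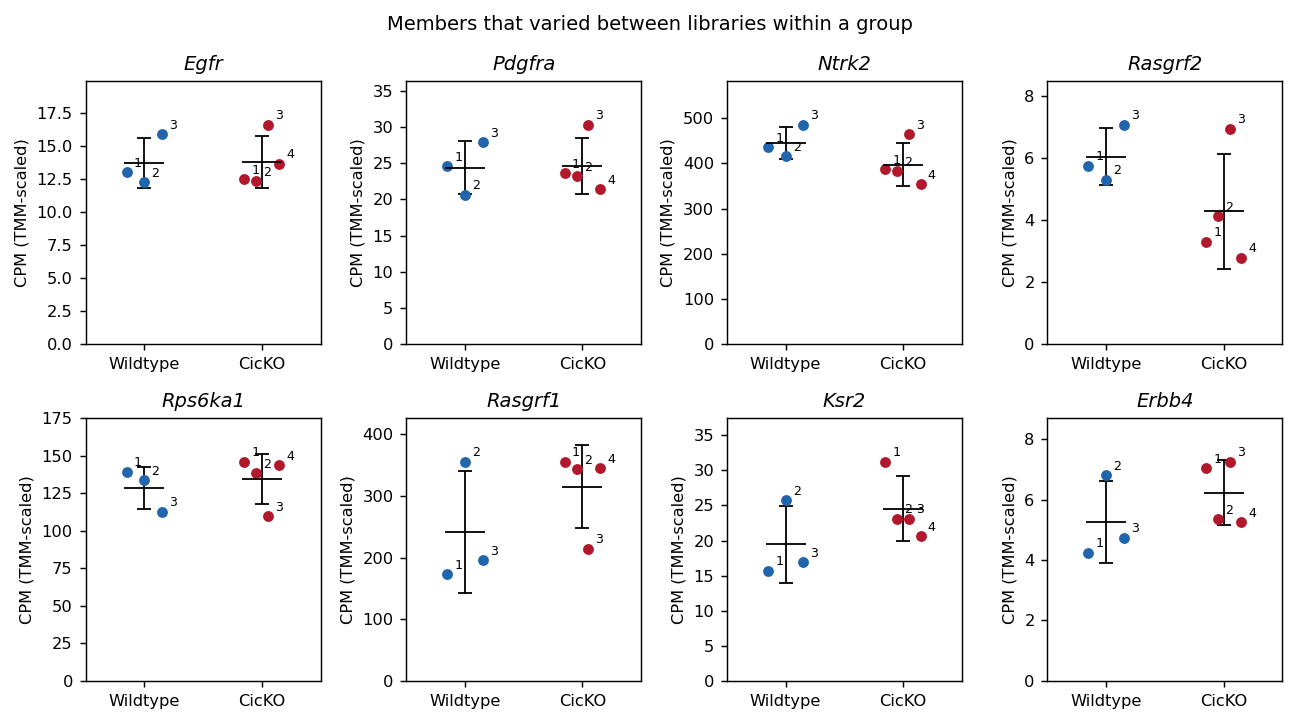
CPM of 8 members with wide spread inside a group, 1 numbered point per library, with mean and SD (3 Wildtype, 4 CicKO). Libraries numbered 3 are highest in both groups for Egfr, Pdgfra, Ntrk2 and Rasgrf2 and lowest in CicKO and Wildtype for Rps6ka1, and Wildtype 2 stands apart from Wildtype 1 and 3 for Rasgrf1, Ksr2 and Erbb4.

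Outside the members, the other listed genes of the route gave few calls. Of 30 ligand genes, 27 were tested and 1 was called higher, Btc, which encodes the EGF receptor ligand betacellulin. It stood at 1.01, 1.71, 1.12 and 0.856 CPM in CicKO 1 to 4 and at 0.457, 0.383 and 0.307 CPM in Wildtype 1 to 3 (log2 fold change 1.62, SE 0.287, edgeR adjusted p = 0.0316). The call was lost under 6 of 7 single omissions (up to 0.142 without Wildtype 3), without both libraries numbered 3 (0.0839), and with a covariate for Xist (0.104) or for the no-feature share (0.238). The median log2 fold change of the tested ligands was -0.0059.

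Of 33 further adaptors, GTPases, kinases and RAS regulators, 1 was called higher and 0 lower, with a median log2 fold change of 0.02. The called gene was Rasa4, which like Nf1 encodes a GTPase-activating protein for RAS. Rasa4 stood at 68.0, 69.9, 75.2 and 72.1 CPM in CicKO 1 to 4 and at 53.6, 52.5 and 53.0 CPM in Wildtype 1 to 3, with no overlap. Its log2 fold change was 0.43 (SE 0.0472, edgeR adjusted p = 0.0046), and the call held without any single library (adjusted p up to 0.0319) but not with the no-feature share as a covariate (0.0934). Of 17 further receptors 16 were tested and 0 were called in edgeR, with 2 higher and 1 lower at an unadjusted p below 0.05: Alk (log2 fold change 0.89, adjusted p = 0.0933), Kdr (0.33, adjusted p = 0.263) and Fgfr4 (-0.73, adjusted p = 0.27). DESeq2 called Alk in this list, 2 higher and 1 lower among the 33 (Rasa4, Cblb and Rps6ka5), and 2 higher and 1 lower among the ligands (Btc, Hbegf and Nrg3).

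At the far end of the route, 9 of the 18 listed CIC targets were called higher, with a median log2 fold change of 0.95 over the list, among them the MAP kinase phosphatase genes Dusp4 and Dusp6 and the receptor kinase inhibitor gene Spry4. Dusp5 of the same list lay lower in every CicKO library (log2 fold change -0.28, edgeR adjusted p = 0.106) and was called lower by DESeq2, and Spry2 had -0.02. The list was chosen with results of these libraries known, so its direction is not independent evidence. Dusp4, Dusp6 and Spry4 had log2 fold changes of 1.69, 1.05 and 1.31, beside 0.46 and 0.32 for Igf1r and Nf1. With the no-feature share as a covariate the Dusp4 call was lost (edgeR adjusted p = 0.0691), while the other 8 calls of the list held. Of 10 early genes that ERK activity is known to induce, 0 were called in edgeR or DESeq2 and 0 had an unadjusted edgeR p below 0.05. The smallest adjusted p among them were those of Fosb (log2 fold change -0.79, adjusted p = 0.563), Junb (-0.22, adjusted p = 0.702) and Ier2 (-0.19, adjusted p = 0.703), and their standard errors, 0.591, 0.234 and 0.202, were larger than those of Igf1r and Nf1.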

How the data were processed

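RNA of 7 cerebellum samples was sequenced, and the authors deposited 1 table of raw gene counts per sample. The submitters' processing notes name STAR 2.5.3a, HTSeq, DESeq2 and the build mm10. Neither the gene annotation nor the strand setting of the counting is given in these sources, so reads of overlapping genes on opposite strands were treated as inseparable. The 5 summary lines that name no gene were left out of library sizes. Reads assigned to no counted feature (the no-feature share) were 16.0% to 19.0% of all entries.

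Groups came from the sample titles and genotypes. CicKO was compared with Wildtype with edgeR 4.0.16 (R 4.3.3): filterByExpr, TMM scaling, robust quasi-likelihood fit and Benjamini-Hochberg adjustment over 16905 genes, with a gene called at an adjusted p below 0.05. The procedure was tested on simulated data. At these depths 3 counts equal 0.0247 to 0.0292 CPM. The members and all gene lists were chosen with earlier results of these data known. Genes named outside the members are those called, those with an unadjusted p below 0.05, or those in a list described in full, apart from examples chosen after their values were seen. RPKM used GENCODE M21 exon lengths, and promoter windows came from RefSeq.

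Alternatives were RLE size factors, library size alone, no filter on low counts, at least 1 CPM in 3 libraries, DESeq2 1.42.0, a replicate block, leaving out each library or both libraries numbered 3, and a covariate for choroid plexus markers, no-feature share or Xist. Same-numbered samples deviated together from their group means (r of 0.145, 0.288 and 0.713 across genes for numbers 1, 2 and 3). However, 3 differently numbered pairs also passed 0.1 (CicKO 1 and CicKO 4 with Wildtype 2 at 0.319 and 0.297, CicKO 4 with Wildtype 1 at 0.187). CicKO 1 thus went more with Wildtype 2 than with Wildtype 1. The labels name no shared litter or day, so the main fit assumed no pairing and the replicate block was an alternative only. Replicates differed by 18.5 to 157 times the variance of sampling noise, so all 7 were counted as separate libraries.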

Additional observations from a re-analysis of the deposited data

Results flagged for a closer look

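The 4 CicKO libraries were checked for a library far from the others in each of the 33 members, by the gap to its nearest neighbour over the range of the group (Dixon's critical value 0.829), and chance alone picks about 1 in 20 such groups. For Rasgrf1, CicKO 3 was low at 215 CPM (214.59) beside 344 to 356 CPM in the others. For Kit, CicKO 1 was high at 369 CPM (369.17) beside 321 to 329 CPM, and for Fgfr3 the same library was high at 98.0 CPM (98.047) beside 93.8 to 94.0 CPM.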

How the results depend on the processing

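Igf1r kept its call in 16 of 17 alternatives and Nf1 in 13. The count of members called higher, 2, became 6 with DESeq2, 1 with Xist as a covariate and 0 with the no-feature share as a covariate, and lay between 1 and 2 when single libraries were left out. The count called lower, 0, lay between 0 and 3 over those omissions, with 3 without CicKO 3. The replicate block changed no member's call (2 higher, 0 lower): Igf1r had a log2 fold change of 0.46 (edgeR adjusted p = 0.00439) and Nf1 0.33 (adjusted p = 0.0149). Over all genes the calls moved from 212 higher and 140 lower to 673 and 497 with DESeq2, 310 and 204 with the block, 368 and 298 with the choroid plexus covariate, 46 and 12 with the no-feature share, 73 and 31 with Xist, and between 65 and 493 higher and 21 and 349 lower without single libraries. The most calls among the single omissions came without CicKO 3 (493 and 349) and without Wildtype 2 (371 and 205), and the cause was not tested.

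Signs turned only for members called under no setting. With the no-feature share as a covariate the log2 fold changes were -0.11 for Erbb4, 0.033 for Fgfr3, 0.15 for Pdgfrb, -0.041 for Rasgrf1, -0.0066 for Araf, -0.034 for Braf and 0.014 for Map2k1. With the block they were 0.024 for Erbb3, 0.011 for Fgfr2 and 0.0041 for Pdgfrb. Without both libraries numbered 3 they were 0.0036 for Fgfr3, 0.0079 for Hras and 0.022 for Rasa1. They were 0.00040 for Rasa1 with the choroid plexus covariate and -0.0010 for Egfr with no filter. Leaving out single libraries gave -0.10 to 0.12 for Egfr, -0.22 to 0.053 for Erbb3, -0.069 to 0.013 for Fgfr2, -0.10 to 0.12 for Pdgfra, -0.12 to 0.10 for Pdgfrb, -0.065 to 0.028 for Rasa1 and -0.023 to 0.15 for Rps6ka1. Met gave no value under the filter of 1 CPM in 3 libraries. Among the members, depth was lowest for Met, with 23 counts in its lowest library.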
